A study of Mus musculus with 9 samples.

Results

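The messenger RNA described here is that of the nucleus accumbens, the ventral part of the striatum, in control mice that received saline. All 21423 genes of the series' table of gene levels were taken, in the 3 lanes of the saline library, out of 9 lanes and 3 libraries in the series. The donors were adult male C57BL/6 mice aged 2 to 5 months that had saline injected into the abdomen at 10 ml/kg once a day for 7 days and were killed 24 h after the last injection. Tissue punches of 8 mice were taken one by one, and equal amounts of their RNA were joined into 1 pool, from which 1 library of poly(A) RNA was made. The other 2 libraries, from mice given cocaine (harvested at 24 h) or cocaine and then 8 days of withdrawal, are not compared here. Since the 3 lanes are repeat runs of 1 library, every SD below (n = 3 lanes) covers sequencing only. Variation between mice cannot be seen in a pool, no test between mice is possible, and how far a level would move in another saline library is not known.

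Most neurons of the nucleus accumbens are medium spiny neurons, which release GABA and project out of the region. One class of them carries the D1 dopamine receptor and makes substance P and dynorphin, and another carries the D2 dopamine receptor and the adenosine receptor Adora2a and makes enkephalin. Dopamine from the midbrain acts on both through cyclic AMP, protein kinase A and DARPP-32, an inhibitor of protein phosphatase 1, while glutamate arrives from cortex, hippocampus, amygdala and thalamus. A punch of tissue also holds interneurons, glia, vessels and blood, and in such bulk RNA fewer cells of a type and less RNA per cell cannot be told apart.

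Levels are in RPKM, the reads of a gene scaled to the length of its model and to the depth of the lane, as the authors deposited them, so that genes can be set in order within the library. A gene's level is its mean over the 3 lanes, and its rank is its place among all 21423 genes, with 1 for the highest. The lanes held 12026754, 6359820 and 7620031 reads by the totals in the table. In a gene model of 2 kb, 1 RPKM stands for 52.0 reads in the whole library, and a count of 0 allows a level of up to 0.0577 RPKM (3 reads, counting error only). A level of 1 RPKM was used as the minimum for a gene to be counted as detected. It was reached by 14002 genes, 65.4% of the table, and 6708 (31.3%) reached 10 RPKM, 709 reached 100 RPKM and 16 reached 1000 RPKM. Counts of detected members of a list below are to be set beside that 65.4%. The median over all genes was 3.49 RPKM. Repeat lanes spread by a median of 13.1% (coefficient of variation) for genes of 1 to 10 RPKM, 6.11% for 10 to 100 RPKM and 3.18% above that. Of the 21423 genes, 17367 were above 0 in each of the 3 lanes and 1107 were listed at 0 in all of them. Genes at 0 in all 9 lanes of the series have no entry in the table.

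The labelled tissue was checked against 7 markers of medium spiny neurons, and all 7 lay well above the median gene, with ranks from 16 to 2594. Penk, the enkephalin precursor, read 975, 1029.5 and 1049 RPKM in lanes 1, 2 and 3. It was the highest neuropeptide gene, stood at rank 16 (ranks 16 to 18 by lane) and was the only marker above 1000 RPKM. Ppp1r1b, which encodes DARPP-32, read 643, 673 and 649.6 RPKM and held rank 45. Adora2a, the adenosine receptor of indirect pathway neurons, read 86.5, 93.1 and 94.6 RPKM at rank 783. Both receptors of dopamine stood lower than these. Drd1a, the D1 receptor, read 38.9, 43.1 and 47.6 RPKM (mean 43.2 ± 4.33 RPKM) and Drd2, the D2 receptor, 37.3, 38.7 and 39.1 RPKM (mean 38.3 ± 0.959 RPKM). Drd1a was the higher of this pair in each of the 3 lanes, by 0.16 ± 0.11 on the scale of log2(RPKM + 0.5), but its lowest lane lay below the highest lane of Drd2, so their order is not separated from the spread of the lanes. Cartpt, the CART peptide precursor, read 58.5, 50.6 and 52.3 RPKM, and Tac1, the substance P precursor, 33.7, 31.8 and 31.4 RPKM. Tac1 was the lowest of the 7 at rank 2594, which still left 87.9% of genes below it. Apart from Drd1a and Drd2, neighbours in this order had no overlapping lanes.

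**Figure D1:**
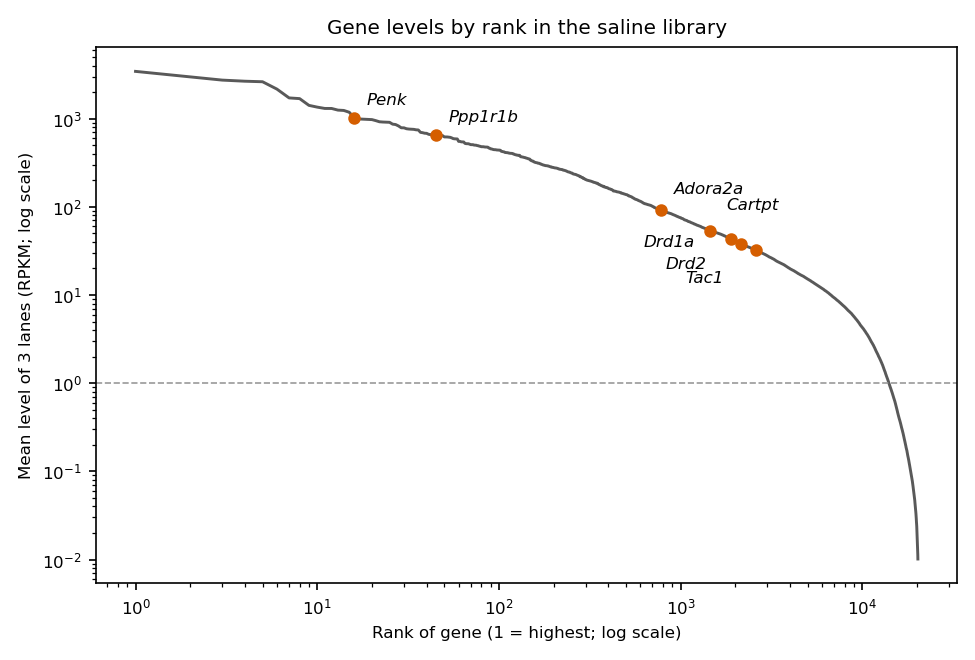
Mean level of each gene (RPKM, log scale) against its rank among 21423 genes (log scale), with the 7 medium spiny neuron markers as orange points and a dashed line at 1 RPKM. Genes with a level of 0 cannot be drawn on these axes. Penk (rank 16) and Ppp1r1b (rank 45) lie on the upper shoulder of the curve and the other 5 markers between ranks 783 and 2594.

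The wider list of striatal projection neuron genes shares Penk, Ppp1r1b and Tac1 with these 7, and the pathway lists below share members with them too. All were chosen with earlier results of these data known, so they are no independent check of the tissue. The wider list had 30 of 30 members at or above 1 RPKM. Its median was 43.1 ± 1.81 RPKM (SD of the lane medians), where all genes had 3.49 RPKM. After Penk and Ppp1r1b its highest member was Pde1b, a calmodulin-dependent phosphodiesterase, at 171 ± 3.7 RPKM. Genes given for the direct pathway class had 8 of 9 members detected and a median of 21.2 ± 2.18 RPKM. Pdyn, the dynorphin precursor, led them with 53.1, 57.3 and 57 RPKM, followed by Drd1a. Chrm4, the M4 muscarinic receptor, was next at 37.9 ± 2.62 RPKM, with lanes that overlapped those of Drd1a. Eya1, a transcriptional coactivator, was the one member under 1 RPKM at 0.841 ± 0.367 RPKM. For the indirect pathway class, 9 of 9 members were detected, with a median of 11.8 ± 0.143 RPKM. Here Penk and Adora2a led, Drd2 followed, and Gpr6, an orphan receptor, read 36.3, 33.1 and 39.5 RPKM, with lanes that overlapped those of Drd2. The precursors of the direct class were far below that of the indirect class. Tac1 was lower than Penk by 4.96 on the log2 scale (SD 0.11), which is 31.5-fold on the means, and lower than Pdyn by 0.78 (SD 0.11), a ratio of 1.73. In neither pair did lanes overlap.

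The precursors of neuropeptides are secreted proteins that are cut into short signals, and the 2 lists of them held 50 genes in the table, of which 36 reached 1 RPKM and 16 reached 10 RPKM. Of the 16, 3 carried the full cyclic AMP response element (CRE), the DNA word bound by CREB, in the 300 bases around their start in RefSeq's GRCm38.p6 (250 before it and 50 after). The 150 bases before each start are shown, 5′ to 3′ on the gene's strand, with the element in capitals. They are shown because CREB is a target of the cyclic AMP pathway. Of the 3 genes, only Cartpt is among the 7 markers of medium spiny neurons.
Cartpt: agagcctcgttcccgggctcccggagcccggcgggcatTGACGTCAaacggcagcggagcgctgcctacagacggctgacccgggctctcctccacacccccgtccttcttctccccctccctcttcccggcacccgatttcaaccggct
Sst: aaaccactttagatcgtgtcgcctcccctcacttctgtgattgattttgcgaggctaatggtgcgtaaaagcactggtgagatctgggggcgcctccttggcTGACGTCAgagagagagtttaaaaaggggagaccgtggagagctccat
Ucn: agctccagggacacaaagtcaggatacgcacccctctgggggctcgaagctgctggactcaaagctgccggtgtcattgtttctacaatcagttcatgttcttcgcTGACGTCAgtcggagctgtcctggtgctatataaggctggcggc
They lie at chr13:99900684-99900833, chr16:23890845-23890994 and chr5:31138896-31139045, all on the minus strand. In Cartpt the element begins at base -112, counted back from the start, in Sst, the somatostatin precursor, at base -48, and in Ucn, the urocortin precursor, at base -44. The word searched was TGACGTCA, which reads the same on both strands. It was found in 3 of the 14 promoters matched among the 16 precursors at or above 10 RPKM (21.4%), in 3 of 40 matched among all 50 (7.5%) and in 507 of the 27025 promoters of the whole table (1.88%). The other word searched, TATAAA on either strand, was in 1 of those 14 (7.14%), in 11 of the 40 (27.5%) and in 14.2% of all promoters. Variants of this exact word, such as the tatataa near the start of Ucn, were not counted. A match of letters is not a site of binding, and the promoters of Penk, Pnoc, Ppp1r1b and Adora2a had no entry to search.

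Among the opioid precursors the order was Penk, Pdyn, Pnoc and Pomc, and no neighbours overlapped between lanes. Pnoc, the nociceptin precursor, read 13.4, 18 and 14.3 RPKM. Pomc, the source of beta-endorphin in the hypothalamus and pituitary, read 2.91, 2.2 and 5.98 RPKM, and its lane 3 was the high one. Among the other precursors Sst was highest at 245, 241 and 239 RPKM (rank 252), with lanes close together. It marks a class of interneurons, as does Npy, neuropeptide Y, at 58.9, 65.1 and 71.9 RPKM. Oxt, oxytocin, a hormone of the hypothalamus, was second of this list at 130.1, 129 and 102 RPKM, with lane 3 lowest. Avp, vasopressin, its neighbour in the genome and in function, read 35.8, 33.8 and 37.4 RPKM. Agt, the angiotensin precursor that astrocytes make, read 60.0, 62.7 and 56 RPKM, and Tac2, the neurokinin B precursor, 45.8, 59.2 and 55 RPKM. Cck, cholecystokinin, read 38.7, 41.8 and 52.5 RPKM. From Npy down to Cck each gene overlapped the next in its lanes (Npy, Agt, Cartpt, Tac2, Cck), so their order is not separated from the lane spread. Nts (neurotensin), Gal (galanin), Trh (thyrotropin-releasing hormone) and Ucn were lower, with means of 19.9, 18.4, 14.4 and 12.3 RPKM. Hcrt, the orexin precursor, stood at 1.71 ± 0.751 RPKM and Vip at 1.15 ± 0.181 RPKM, near the minimum. Tac4 was listed at 0 in all 3 lanes.

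**Figure D2:**
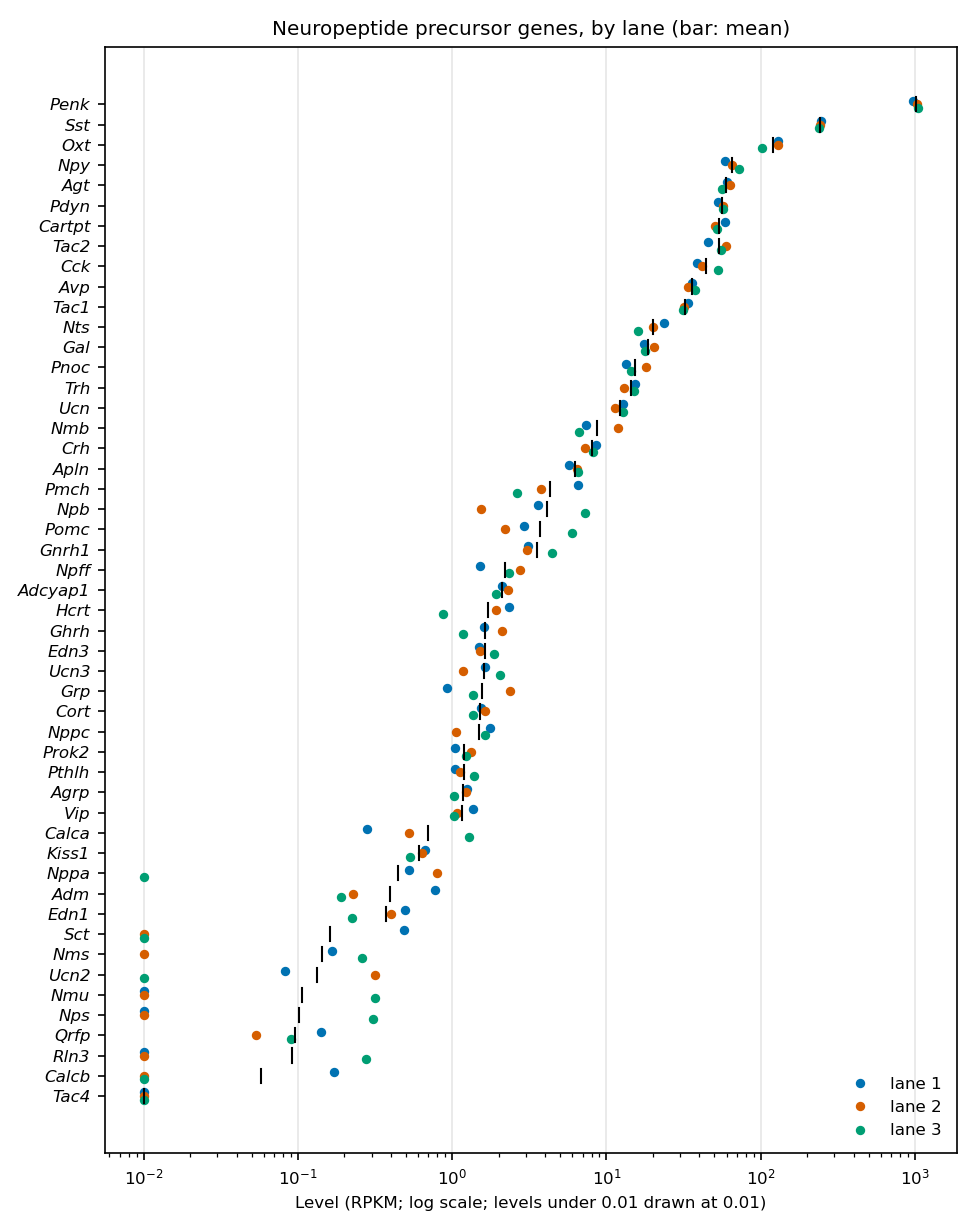
Level of each of the 50 neuropeptide precursor genes in the 3 saline lanes (points, RPKM on a log scale) with their mean (bar), ordered by mean; levels under 0.01 RPKM are drawn at 0.01. Penk stands alone at about 1018 RPKM and Sst follows at 241 RPKM.

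Genes that pack and cut peptides were abundant. Of 20 granins and processing enzymes 18 were detected, with a median of 27.2 ± 0.942 RPKM. Cpe, carboxypeptidase E, which trims peptides after cutting, read 756, 755 and 761 RPKM at rank 33. Scg2, a granin of secretory granules, read 349, 343 and 359 RPKM, and Pcsk1n, an inhibitor of a prohormone convertase, 352, 311 and 294 RPKM. The convertases themselves were much lower. Pcsk2 stood at 24 ± 0.0965 RPKM and Pcsk1 at 3.38 ± 0.521 RPKM, both chosen after their values were seen. Among 32 trophic factors, 26 were detected, with a median of 3.5 ± 0.21 RPKM. Ptn, pleiotrophin, led at 70.9 ± 2.38 RPKM, before Vegfb at 47 ± 5.21 RPKM and Pdgfa at 31.3 ± 1.82 RPKM.

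Dopamine receptors fell into a high pair and 3 low members. After Drd1a and Drd2 came Drd3, the D3 receptor typical of the ventral striatum, at 2.81, 1.73 and 1.26 RPKM, with lane 1 the high one. Drd5 read 0.986, 1.05 and 0.937 RPKM and Drd4 0.0594, 0.112 and 0.0938 RPKM. The last 3 stayed at or below 2.81 RPKM in every lane, and only Drd1a and Drd2 overlapped. Adenosine receptors had a clear order without overlaps. Adora2a was above Adora1, the inhibitory A1 receptor, which read 27, 27.9 and 24.9 RPKM, by 1.76 ± 0.13 on the log2 scale (3.44-fold on the means). Adora2b stood at 1.37 ± 0.343 RPKM and Adora3 at 0.558 ± 0.194 RPKM.

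Of the receptors for opioids, Oprl1, the nociceptin receptor, was by far the highest at 87.9, 90.4 and 96.2 RPKM. The kappa receptor Oprk1, which dynorphin binds, read 4.69, 3.65 and 4.64 RPKM. The delta receptor Oprd1, one target of enkephalin, read 1.74, 1.63 and 2.09 RPKM, and the mu receptor Oprm1 0.756, 1.34 and 0.634 RPKM. Lanes did not overlap between neighbours in this order. Oprk1 was above Oprm1 by 1.80 ± 0.55 on the log2 scale and Oprd1 above Oprm1 by 0.75 ± 0.49, the widest lane spreads of all 12 pairs compared. At under 1 RPKM, Oprm1 had 33.6% of genes below it, next to 99.9% for Penk, whose peptide it binds. The gene models and lengths behind these values are not given in the sources used here, and a long model lowers the RPKM of a gene at a given number of reads.

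Acetylcholine acts in this region on muscarinic and nicotinic receptors. All 5 muscarinic genes were detected. Chrm4, which opposes D1 signalling through an inhibitory G protein, read 35.1, 38.3 and 40.2 RPKM and Chrm1, the M1 receptor, 13.8, 15.7 and 14.2 RPKM, a difference of 1.35 ± 0.11 on the log2 scale with no overlap. Chrm3 (4.3 ± 0.54 RPKM), Chrm2 (3.37 ± 0.845 RPKM) and Chrm5 (2.02 ± 0.705 RPKM) followed, and each of these overlapped its neighbour among the 3. Only 4 of 15 nicotinic subunits in the table reached 1 RPKM. Those were Chrnb2 at 13.2 ± 1.24 RPKM, Chrna4, its usual partner in brain, at 5.14 ± 0.0215 RPKM, Chrna7 at 2.98 ± 0.156 RPKM, and Chrna3, on the minimum, at 1.0 ± 0.165 RPKM. The subunits Chrna6 and Chrnb3, known from dopamine axons, stood at 0.12 ± 0.11 RPKM and 0.164 ± 0.0765 RPKM, and they were named after their values were seen.

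For serotonin, 9 of 14 receptor genes were detected (64.3%, where all genes had 65.4%) and none reached 10 RPKM. Htr2c read 9.18, 9.6 and 9.3 RPKM, Htr1b 8.4, 7.14 and 6.78 RPKM and Htr7 6.82, 5.28 and 7.83 RPKM. Adrenergic receptors were led by Adra2a, an inhibitory autoreceptor and heteroreceptor, at 14.8, 13.6 and 15.4 RPKM. Adrb1 read 8.85, 4.8 and 8.65 RPKM, with lane 2 low. Adra1b, Adra1a, Adra2b, Adra1d and Adrb3 had means of 3.98, 2.02, 1.86, 0.591 and 0.175 RPKM. Hrh3, the histamine receptor that limits transmitter release, read 39.4, 40.1 and 39.5 RPKM and was close to Drd2 in level. Hrh1 read 11.7, 13.6 and 10.1 RPKM, Hrh2 stood at 1.25 ± 0.346 RPKM, and Hrh4 was listed at 0 in all 3 lanes. Cnr1, the CB1 cannabinoid receptor of nerve endings, read 19.4, 19.7 and 19.6 RPKM, while Cnr2, the CB2 receptor of immune cells, was above 0 in 1 lane only (0.0132 RPKM on average).

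Receptors for peptides had list medians below the 3.49 RPKM of all genes, while their detected shares were near the 65.4% of all genes. Of 13 receptors for somatostatin, neuropeptide Y and galanin, 8 were detected (61.5%). Their list had a median of 2.23 ± 0.626 RPKM, with medians of 1.09 to 2.19 RPKM in single lanes. It was led by Sstr2 (10.1 ± 0.942 RPKM), Npy2r (9.84 ± 1.55 RPKM) and Sstr1 (7.91 ± 0.445 RPKM). Among 29 further peptide receptors 18 were detected (62.1%), with a median of 1.44 ± 0.223 RPKM. Ntsr2, a neurotensin receptor of astrocytes, read 170.3, 149.5 and 159 RPKM. Its mean was the highest of the G protein-coupled receptors of all lists here, but its lanes overlapped those of Gabbr1 (mean 146.7 RPKM). Adcyap1r1, the PACAP receptor, stood at 47.7 ± 2.26 RPKM and Npr2, a natriuretic peptide receptor, at 29.6 ± 1.64 RPKM. The receptors of the abundant hormones Oxt and Avp were near the minimum or under it. Oxtr read 0.892, 1.65 and 1.21 RPKM and Avpr1a 0.56, 0.648 and 0.688 RPKM, both named after their values were seen. Orphan receptors numbered 94 in the table with 53 detected, a share of 56.4% where all genes had 65.4%. Among the highest were Gpr56, an adhesion receptor of glia and neural precursors, at 78.4, 81.9 and 79.8 RPKM and Gpr162 at 51.1, 49.3 and 50.2 RPKM. P2 receptors for nucleotides had 7 of 14 members detected, led by the microglial P2ry12 at 18.1 ± 1.28 RPKM, then P2ry1 (5.35 ± 1.16 RPKM) and P2rx4 (4.29 ± 0.508 RPKM). Receptor tyrosine kinases and their co-receptors had 20 of 22 detected, led by Gfra4 (83.3 ± 3.9 RPKM), a co-receptor for persephin, Fgfr3 (61.4 ± 0.315 RPKM) and Ntrk2, the BDNF receptor (44.5 ± 1.08 RPKM). In RefSeq's annotation Mir6973b overlaps Gfra4 and Gm32404 overlaps Gpr162, and reads of each pair may not be separable.

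**Figure D3:**
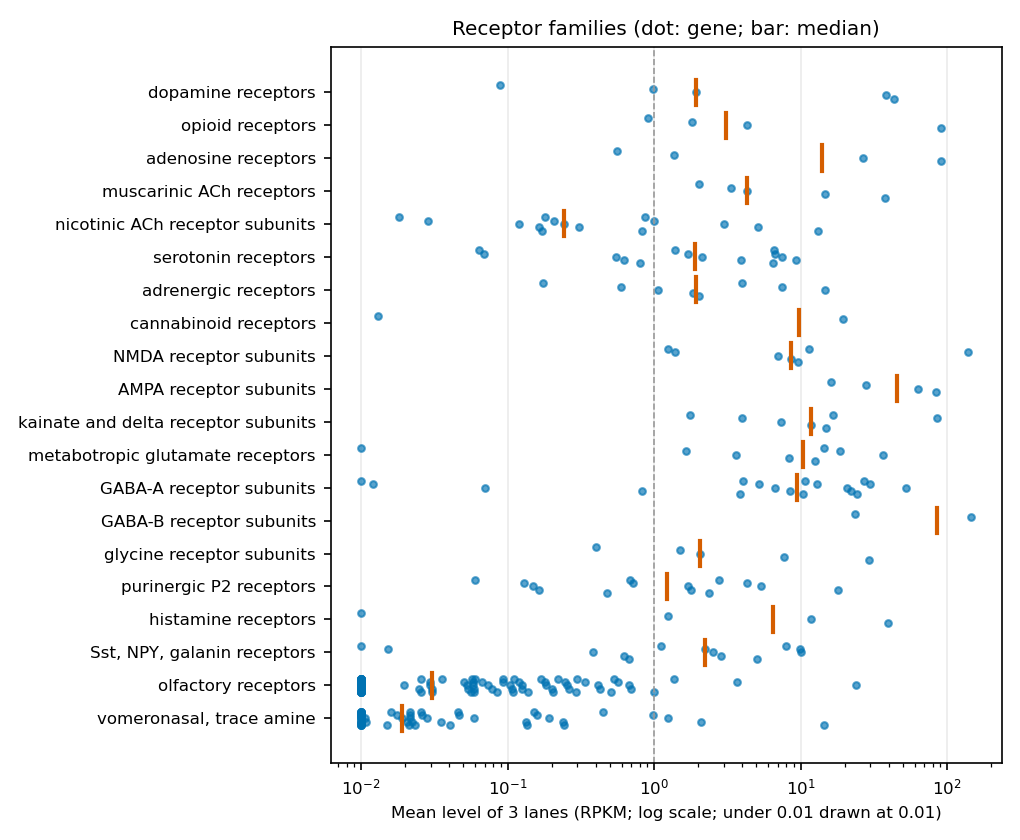
Mean level of each gene of the receptor families drawn (dot, RPKM on a log scale), 1 line per family. The family median is an orange bar and a dashed line marks 1 RPKM. Dots are shifted up and down only to keep them apart, and levels under 0.01 RPKM are drawn at 0.01. Not drawn are orphan receptors, receptor tyrosine kinases with their co-receptors and the 29 further peptide receptors, Ntsr2 among them. AMPA (median 45.6 RPKM) and GABA-B subunits (median 85.2 RPKM) lie high, while nearly all olfactory and vomeronasal receptors lie under 1 RPKM.

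Glutamate receptors were among the highest receptor families. All 4 AMPA subunits were detected, with a median of 45.6 ± 0.753 RPKM. Gria1 read 86.5, 80.5 and 84.8 RPKM and Gria2, the subunit that blocks calcium entry, 64.4, 62.8 and 61.8 RPKM, so Gria2 was lower by 0.41 on the log2 scale (SD 0.0494), without overlap. Gria3 stood at 28.1 ± 0.571 RPKM and Gria4 at 16.1 ± 0.32 RPKM. All 7 NMDA subunits were detected as well, with a median of 8.64 ± 0.404 RPKM. Grin1, the subunit that every NMDA receptor needs, read 140.2, 139 and 139.5 RPKM. The partners were far lower and close to each other, with Grin2b at 11.4, 11.2 and 11.6 RPKM, Grin2c at 9.61 ± 0.273 RPKM, Grin3a at 8.64 ± 0.403 RPKM and Grin2d at 7.0 ± 0.528 RPKM. Grin2a read 1.19, 1.54 and 1.47 RPKM, lower than Grin2b in each lane. The log2 difference of Grin2b and Grin2a was 2.65 ± 0.15 with 0.5 RPKM added to each level, and 2.95 or 2.37 with 0.1 or 1 RPKM added, while the ratio of the means was 8.15. Grin3b at 1.24 ± 0.155 RPKM overlapped Grin2a.

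Kainate and delta subunits all passed the minimum. Grik5 read 81.5, 87.1 and 88.2 RPKM, and Grik2 stood at 16.6 ± 1.46 RPKM, Grid1 at 14.9 ± 0.141 RPKM, Grik3 at 11.8 ± 0.143 RPKM, Grik4 at 7.34 ± 0.499 RPKM and Grik1 at 4.0 ± 0.356 RPKM. Zfp574 overlaps Grik5 in RefSeq's annotation, and reads of the pair may not be separable. Metabotropic receptors were led by Grm5, a postsynaptic receptor linked to calcium release, at 40.8, 36.1 and 33.1 RPKM. Grm3 stood at 14.4 ± 1.06 RPKM and Grm4 at 12.5 ± 0.532 RPKM. Grm7 had 8.37 ± 0.512 RPKM, Grm2 3.62 ± 0.498 RPKM and Grm8 1.65 ± 0.214 RPKM, with no overlap between neighbours in this order, and Grm6, known from the retina, was listed at 0.

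On the inhibitory side, 14 of 18 GABA-A subunits were detected, with a median of 9.44 ± 0.872 RPKM. Gabrd, a subunit of receptors outside synapses, was highest at 51.5, 51.5 and 55.2 RPKM. Gabra2, a subunit of synaptic receptors, read 11.3, 9.84 and 9.99 RPKM, lower in each lane than Gabrd. The GABA-B receptor needs both of its subunits at the membrane, and Gabbr1 read 146, 142 and 153 RPKM against 22.8, 23.5 and 24.4 RPKM for Gabbr2. Glycine receptors were led by Glrb, the anchoring subunit, at 29.4 ± 2.06 RPKM, before Glra2 (7.72 ± 0.51 RPKM), Glra1 (2.05 ± 0.552 RPKM), Glra3 (1.5 ± 0.284 RPKM) and Glra4 (0.403 ± 0.393 RPKM).

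Signalling from receptor to DARPP-32 runs through G proteins, cyclic AMP and protein kinase A. All 25 genes of the protein kinase A and phosphatase list were detected, 24 of them at 10 RPKM or more. Their median was 66.2 ± 1.13 RPKM, while the medians in single lanes were 68.2 to 70.3 RPKM. After Ppp1r1b the highest were the regulatory subunits Prkar1b at 406, 407 and 406 RPKM and Prkar1a at 209, 207 and 206 RPKM. Adenylyl cyclases make cyclic AMP, and 1 of the 10 stood apart. Adcy5, the main cyclase of striatal neurons, read 119, 124 and 120.0 RPKM, and the next, Adcy3 (22.8 ± 1.22 RPKM) and Adcy2 (21.8 ± 0.58 RPKM), overlapped each other. Phosphodiesterases, which break cyclic nucleotides down, had 17 of 21 members detected, led by Pde1b at 167, 174 and 172 RPKM, Pde2a at 144, 139 and 152 RPKM and Pde1a at 48.3 ± 4.07 RPKM. Pde10a, an enzyme known for its striatal expression, stood at 34.7 ± 0.792 RPKM and was named after its value was seen.

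G protein alpha subunits had 12 of 15 detected, with a median of 37 ± 3.69 RPKM. Gnas, the general stimulatory subunit, read 248, 248 and 248 RPKM, followed by Gnai2 at 136 ± 11.1 RPKM and Gnao1 at 101 ± 2.44 RPKM, both inhibitory. Gnal, which couples dopamine D1 and adenosine receptors to the cyclase in striatum, read 48.4, 51.5 and 53.6 RPKM, lower than Gnas in all 3 lanes, and was named after its value was seen. Beta and gamma subunits were led by Gnb2 (354 ± 4.99 RPKM), Gnb1 (314 ± 7.3 RPKM) and Gng7, a partner of the Gnal protein (164 ± 6.01 RPKM), with 15 of 17 detected. RGS proteins speed the end of a G protein's signal. Of them 16 of 19 were detected, with a median of 21.5 ± 0.549 RPKM and medians of 19.9 to 20.9 RPKM in single lanes. Rgs4 led at 84.9 ± 2.77 RPKM, before Rgs14 (35.2 ± 1.4 RPKM) and Rgs10 (35.1 ± 0.646 RPKM). Rgs9, known for its striatal form, stood at 21.5 ± 0.61 RPKM, also named after its value was seen. The calmodulin and kinase list was detected in full (14 of 14), with a median of 73.4 ± 4.75 RPKM and with Calm2 (985 ± 11.2 RPKM) and Calm3 (512 ± 3.84 RPKM), which encode the same protein, among the highest.

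Potassium channels were the largest channel family, with 91 genes in the table. Of these 62 were detected (68.1%), with a median of 4.19 ± 0.495 RPKM. Both values were near those of all genes (65.4% and 3.49 RPKM). Among the highest were Kcnip2, a subunit of A-type channels, at 85.8, 89.4 and 89.5 RPKM and Kcnab2 at 72.8, 74.8 and 78 RPKM. Of the sodium channel accessory subunits, 2 that exceeded every pore-forming gene are given as examples, not as the highest in order. Scn2b read 148, 152 and 151 RPKM and Scn4b, a beta subunit known from striatum, 56.5, 60.5 and 57.6 RPKM. The highest pore gene was Scn2a1 at 26.6 ± 0.785 RPKM, named after its value was seen, and 10 of 13 sodium channel genes were detected. Accessory subunits also led the calcium channels, with Cacng8 (68.9 ± 4.32 RPKM) and Cacng7 (52 ± 3.3 RPKM), which also act as AMPA receptor partners, and Cacna2d2 (45.7 ± 1.56 RPKM) on top, and 22 of 26 of the list were detected. Of the HCN channels, which carry a current opened by hyperpolarization, Hcn2 read 73.6, 75.7 and 72.8 RPKM, while Hcn3 stood at 9.19 ± 0.824 RPKM.

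Chloride channels and anoctamins had 13 of 16 detected, led by Clcn4-2 (43.3 ± 1.6 RPKM), Clcn3 (29.2 ± 1.69 RPKM) and Ano8 (24.7 ± 1.81 RPKM). TRP and related channels had 14 of 27, led by the lysosomal Mcoln1 (39.3 ± 3.27 RPKM), Trpc2 (9.63 ± 0.554 RPKM) and Trpm2 (7.64 ± 0.572 RPKM). For acid-sensing and epithelial sodium channels the count was 4 of 8, with Accn2 (39.2 ± 1.98 RPKM), Accn4 (27.5 ± 0.937 RPKM) and Accn1 (12.7 ± 0.148 RPKM) on top and the epithelial Scnn1b and Scnn1g listed at 0. Release of calcium from stores was represented mainly by Itpr1 at 42 ± 0.359 RPKM, with Ryr3 at 6.92 ± 0.384 RPKM and Ryr2 at 3.96 ± 0.146 RPKM, and 5 of 6 of that list were detected.

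Among transmitter genes, those for GABA stood high. Slc32a1, the vesicular GABA transporter, read 335, 351 and 327 RPKM at rank 149. Gad1, which makes GABA, read 93.7, 91.1 and 95 RPKM and Gad2 70.8, 72.1 and 72.4 RPKM, a difference of 0.38 ± 0.0356 on the log2 scale without overlap. Slc17a7, the vesicular glutamate transporter of cortical neurons, read 19.4, 18.2 and 17.4 RPKM, which was 4.17 lower than Slc32a1 on the log2 scale (SD 0.0811), or 18.4-fold on the means. Uptake genes were high too, with Slc1a2, the glial glutamate transporter, at 279 ± 6.79 RPKM and Slc6a11, a GABA transporter of astrocytes, at 110.2 ± 0.852 RPKM. In all, 14 of 19 transporters and 17 of 21 enzymes of synthesis and breakdown were detected. Glul, which makes glutamine in astrocytes, led the enzymes at 476 ± 7.84 RPKM, before Abat, which breaks GABA down (100.2 ± 1.95 RPKM), and Gad1. Dopamine axons reach this region from cell bodies in the midbrain. Of the genes of those neurons, Slc6a3, the dopamine transporter, was low at 0.241, 0.273 and 0.0759 RPKM. Th, tyrosine hydroxylase, read 8.83, 8.53 and 7.58 RPKM, above the median gene (3.49 RPKM). Th is also on the list of GABA interneuron markers used here.

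**Figure D4:**
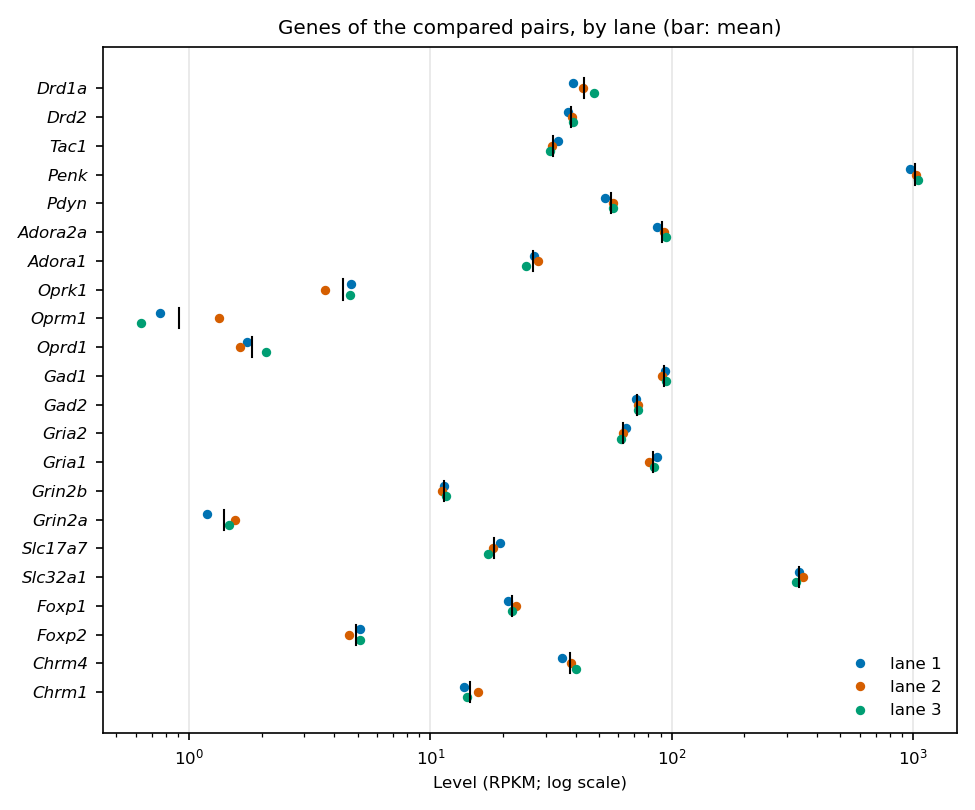
Level of the genes of the 12 compared pairs in the 3 saline lanes (points, RPKM on a log scale) with the mean as a bar. Drd1a and Drd2 share part of their range, whereas the other 11 pairs, such as Slc32a1 (338 RPKM) and Slc17a7 (18.3 RPKM), are separated in all 3 lanes.

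In the list of striatal projection neuron factors 37 of 39 were detected, 23 of them at 10 RPKM or more, with a median of 12.5 ± 0.936 RPKM. Mef2d, of the family that reads synaptic activity, read 77, 78 and 85.6 RPKM. Meis2, a homeobox factor of the developing striatum, read 33.4, 35.2 and 34 RPKM, and Bcl11b, also named Ctip2, 34.3, 32.4 and 34.4 RPKM. Foxp1 read 21, 22.6 and 21.7 RPKM and Foxp2 5.11, 4.6 and 5.09 RPKM, so Foxp1 was higher by 2.04 ± 0.13 on the log2 scale without overlap. Isl1, a factor of direct pathway neurons, stood at 11.1 ± 0.821 RPKM, and Sp9, a factor of indirect pathway neurons, at 5.09 ± 0.571 RPKM, both named after their values were seen.

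Factors whose genes are switched on by activity were present 24 h after the last injection, with 18 of 21 detected and a median of 4.29 ± 0.286 RPKM. Jund, the member with steady expression, read 153, 136 and 131 RPKM, before Jun (36.6 ± 0.905 RPKM) and Junb (33.2 ± 2.14 RPKM). Fos read 5.74, 5.19 and 7.46 RPKM and Fosb 2.21, 2.93 and 3.44 RPKM, both named after their values were seen. The CREB, ATF and CRTC list had 17 of 23 detected and was led by Atf4 (82 ± 2.52 RPKM), a factor of the stress response, Creb3 (38.2 ± 2.39 RPKM) and the CREB coactivator Crtc1 (34.7 ± 1.35 RPKM). Creb1 itself stood at 3.79 ± 0.18 RPKM, again a gene named after its value was seen. Nuclear receptors had 32 of 48 detected (66.7%, where all genes had 65.4%). They were led by Thra, a thyroid hormone receptor, at 196, 207 and 198 RPKM. Next were Nr1d1, a repressor of the clock (55.7 ± 2.18 RPKM), and Nr1h2 (39 ± 1.08 RPKM).

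Factor families that pattern the body are counted over their members in the table, where 65.4% of all genes reached 1 RPKM. Sox (73.7%) and KLF and SP genes (73.1%) lay above that share. Below it lay Fox (51.4%), POU (50%), LIM homeobox (45.5%), Pax (12.5%) and Hox genes (0%). Fox genes had 19 of 37 detected, with Foxp1 and Foxo3 (17.1 ± 1.15 RPKM) among the highest. No Hox gene, the family that patterns hindbrain and spinal cord, reached 1 RPKM. Of 39 Hox genes 16 were in the table, 3 of these (Hoxb5, Hoxb3 and Hoxc6) were at 0 in the saline lanes, and the highest mean was 0.0858 RPKM for Hoxc8. Of the Pax genes only Pax6 was detected (5.25 ± 0.579 RPKM), with Pax5 (0.183 RPKM) and Pax9 (0.11 RPKM) next. Sox genes (14 of 19 detected) were led by Sox10 of oligodendrocytes (64.3 ± 1.47 RPKM), Sox2 (47 ± 6.25 RPKM) and Sox8 (29.9 ± 2.44 RPKM). POU genes had 7 of 14 detected, with Pou3f1 (44.1 ± 5.37 RPKM), Pou3f3 (36.9 ± 0.95 RPKM) and Pou6f1 (31 ± 3.13 RPKM) on top. LIM homeobox genes had 5 of 11, with Lhx6 of GABA interneurons (18.5 ± 2.0 RPKM), Isl1 and Lhx2 (10.9 ± 0.878 RPKM). For KLF and SP genes the count was 19 of 26, with Klf9 (33.1 ± 1.07 RPKM), Klf13 (23.4 ± 0.676 RPKM) and Klf15 (22.9 ± 0.62 RPKM) on top.

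Cells other than medium spiny neurons were read from marker lists, each given by its detected members and by the range of its summed level over the lanes. Neurons in general had all 15 markers detected, with a sum of 2529.6 to 2603 RPKM, led by Eno2 (744 ± 23.2 RPKM), Uchl1 (449.5 ± 6.86 RPKM) and Thy1 (235 ± 3.68 RPKM). Markers of GABA interneurons were all detected (14 of 14, sum 437 to 442 RPKM), with Sst, Npy and Calb2, calretinin (53.4 ± 2.62 RPKM), highest. Pvalb, parvalbumin, read 19.1, 16.5 and 16.9 RPKM and Nos1 8.18, 8.27 and 9.22 RPKM, both named after their values were seen. The cholinergic interneuron list was detected in full (9 of 9, sum 61.2 to 64.5 RPKM). Its median was low at 3.14 ± 0.26 RPKM, with medians of 2.49 to 2.99 RPKM in single lanes. Its top members were Ecel1 (36.2 ± 0.799 RPKM), Lhx8, the factor that specifies these cells (7.77 ± 0.322 RPKM), and Slc18a3, the vesicular acetylcholine transporter (3.8 ± 0.701 RPKM). Chat, which makes acetylcholine, read 2.87, 3.09 and 3.48 RPKM and was named after its value was seen.

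Glial marker lists had medians above the 3.49 RPKM of all genes, high for astrocytes and myelin and lower for oligodendrocyte precursors and microglia. These are levels of RNA and not counts of cells. The astrocyte list had 21 of 22 members detected, a median of 65.3 ± 1.46 RPKM and a sum of 4709 to 4732 RPKM. On top were Cst3 (1717 ± 20.6 RPKM), Aldoc (604 ± 13.5 RPKM) and Glul, of which Cst3 and Glul are also made by other cells. Mature oligodendrocytes and myelin had 20 of 20, a median of 69.8 ± 3.27 RPKM and a sum of 2721 to 2767 RPKM. Mbp, which encodes a main protein of myelin, read 646, 653 and 651 RPKM, at the level of Ppp1r1b. Precursors of oligodendrocytes had 15 of 15 detected but a median of 4.81 ± 0.225 RPKM, with a sum of 269.5 to 294 RPKM that Olig1, also present in mature cells, made up for the most part (206 ± 11.7 RPKM), before Gpr17 (14.5 ± 0.635 RPKM) and Olig2 (13.3 ± 0.863 RPKM). Microglia had 18 of 21 detected, a median of 9.44 RPKM and a sum of 305 to 331 RPKM, with Ctss (45.3 ± 4.12 RPKM) and C1qb (35 ± 2.11 RPKM) among the highest.

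Markers of vessels, linings and blood were read in the same way. Endothelial and mural markers had 21 of 23 detected (median 3.88 ± 0.468 RPKM, sum 191 to 197 RPKM), led by Vtn (37.5 ± 1.1 RPKM), Slc2a1 (29.9 ± 1.21 RPKM) and Cldn5 (28.4 ± 0.167 RPKM). Ependymal and choroid plexus markers had 10 of 15 (66.7%), with a median of 2.25 ± 0.9 RPKM and a sum of 75.4 to 86.2 RPKM. The highest was Enpp2 (40.2 ± 2.28 RPKM), which oligodendrocytes also make, followed by Rarres2 (14.7 ± 2.37 RPKM) and Clic6 (5.31 ± 0.883 RPKM). Ttr, transthyretin, the most abundant product of the choroid plexus, read 2.93, 1.29 and 2.9 RPKM and was named after its value was seen. Meningeal markers had 9 of 15 (60%, median 1.9 ± 0.231 RPKM, sum 357 to 364 RPKM). Ptgds (321 ± 4.64 RPKM), a product of both meninges and oligodendrocytes, led them. Igf2 (12.7 ± 1.51 RPKM) and Mgp (9.24 ± 1.52 RPKM) came next, and Col1a1, a defining collagen, was listed at 0. The ependymal and meningeal medians lay below the 3.49 RPKM of all genes, of which 65.4% were detected. Red cell genes had 7 of 9 (sum 497 to 533 RPKM). Hba-a2 read 143, 158 and 140.4 RPKM, Hba-a1 131, 146 and 130.3 RPKM and Hbb-b1 112, 109 and 127 RPKM, and since the alpha globin genes are near-identical copies, the split between them is uncertain.

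Lists of neighbouring or distant brain regions were checked because a punch can take in tissue beyond the accumbens. Septal, hypothalamic and preoptic markers had 19 of 22 detected (median 4.57 ± 0.878 RPKM, sum 781 to 813 RPKM). Hap1, a partner of huntingtin that is strong in hypothalamus, read 386, 395 and 383 RPKM, followed by Oxt and by Dlk1 at 117, 119 and 123.3 RPKM. Pmch, a defining peptide of the lateral hypothalamus, read 6.55, 3.78 and 2.63 RPKM and Sim1, a factor of the neurons that make Oxt, 0.0452, 0.0428 and 0.143 RPKM, both named after their values were seen. The part of such tissue in the levels of Oxt and Avp was not tested. Cortical projection neuron markers had 10 of 14 (median 2.6 ± 0.0842 RPKM, 2.62 to 2.79 RPKM in single lanes, sum 121 to 126 RPKM). They were led by Lamp5, listed as 6330527O06Rik (52.3 ± 3.83 RPKM), Mef2c (19.6 ± 0.421 RPKM) and Slc17a7. The defining factors Tbr1 and Neurod6 stood at 2.4 ± 0.382 RPKM and 0.452 ± 0.0752 RPKM. Hippocampal markers had 7 of 12 (sum 200.0 to 220.1 RPKM), with Wfs1 (115 ± 4.62 RPKM), Pou3f1 and Calb1 (26.9 ± 2.04 RPKM) highest, which striatal neurons share in part, and Lct, Iyd and Dsp at 0. Thalamic markers had 11 of 12 (sum 117 to 124 RPKM), led by Calb2, Zic1 (15.1 ± 0.619 RPKM) and Ramp3 (11.1 ± 1.06 RPKM). Monoamine neuron markers were lowest of the neuron lists, with 5 of 14 detected and a sum of 26.4 to 29.3 RPKM. Th, Aldh1a1 (8.09 ± 1.28 RPKM) and Ddc (5.83 ± 0.582 RPKM) led them, and En1 and Dbh were at 0. Neuroblast and progenitor markers had 10 of 14 (sum 287 to 291 RPKM). Tubb3, a tubulin that mature neurons keep (215 ± 0.197 RPKM), made up most of it, before Dlx1 (26 ± 1.89 RPKM) and Sox4 (15.3 ± 1.63 RPKM), and Neurog2 was at 0.

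Genes of tissues other than brain gave a measure of background. Of 50 such genes 38 were in the table and 6 reached 1 RPKM, which is 15.8% where all genes had 65.4%. The highest were Mb, myoglobin, at 6.64, 6.02 and 5.98 RPKM, Lor, a skin protein, at 6.12, 5.83 and 5.72 RPKM, and Krt10, a keratin, at 2.76, 3.35 and 3.38 RPKM. The 3 lanes of each lay close together. Olfactory receptors, made in the nose, had 98 of 1111 genes in the table and 4 at or above 1 RPKM, or 4.08% of those in the table. Olfr613 read 25.5, 21.9 and 24.4 RPKM, far above Olfr287 (3.7 ± 1.04 RPKM) and Olfr1344 (1.38 ± 0.23 RPKM). Vomeronasal and trace amine receptors had 55 of 370 in the table and 3 at or above 1 RPKM. Vmn1r58 read 16.2, 13.6 and 13.7 RPKM, ahead of Vmn2r55 (2.1 ± 0.416 RPKM) and Vmn2r29 (1.25 ± 0.199 RPKM). Neither Olfr613 nor Vmn1r58 overlaps another gene in RefSeq's annotation of GRCm38.p6, a later build than that of the values. Both belong to families of similar genes, so their reads are uncertain.

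**Figure D5:**
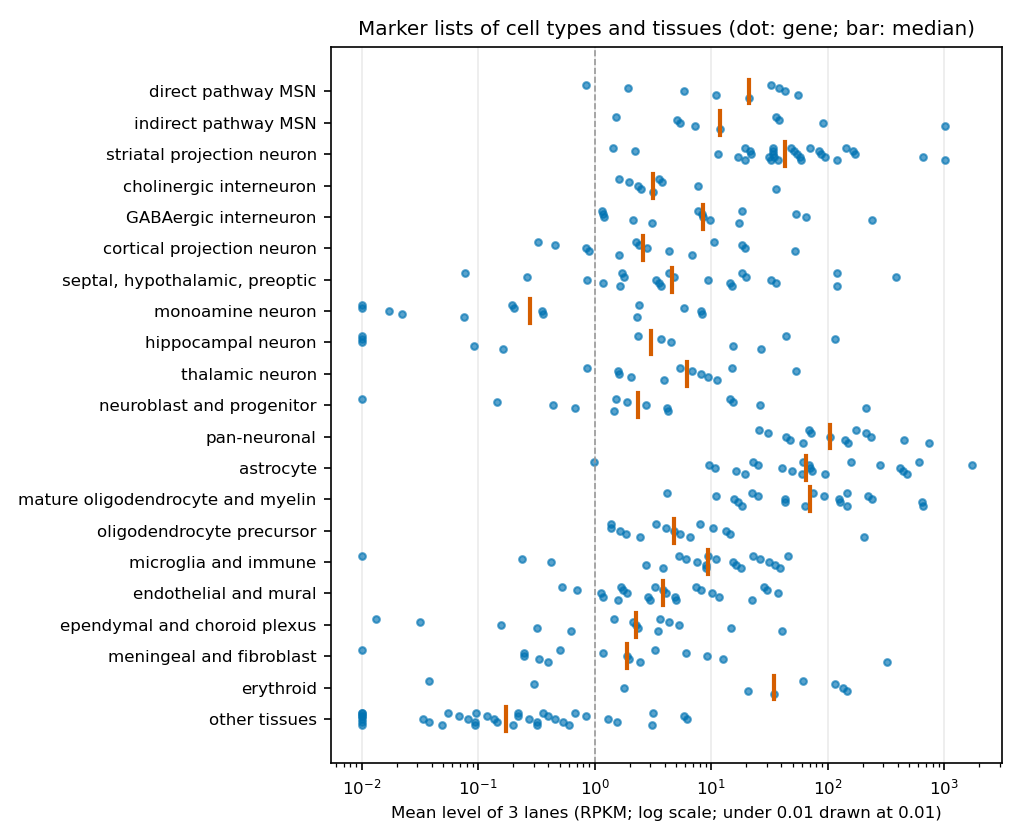
Mean level of each marker gene (dot, RPKM on a log scale), 1 line per cell type or tissue, with the list median as an orange bar and a dashed line at 1 RPKM; dots are shifted up and down only to keep them apart, and levels under 0.01 RPKM are drawn at 0.01. Pan-neuronal (median 104.0 RPKM), myelin (69.8 RPKM) and astrocyte markers (65.3 RPKM) lie highest, and monoamine neurons (0.279 RPKM) and other tissues (0.172 RPKM) lowest. The list of 7 medium spiny neuron markers has no line of its own.

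At the top of the whole library stood genes that nearly all cells use. Eef1a1, an elongation factor of protein synthesis, was first with 3314, 3481 and 3502 RPKM. Apoe, the lipid carrier of astrocytes and microglia, was next with 2993, 3038 and 2879.6 RPKM. At rank 4 stood Gm12033, annotated as a pseudogene (2655 ± 86.7 RPKM), whose level is uncertain because pseudogenes copy the sequence of other genes. At rank 5 stood Meg3, an imprinted long non-coding RNA of neurons, with 2574, 2635 and 2647 RPKM. Further down the first 20 stood Hspa8, Cst3, Ubb, Rpl41, Actg1, Rps21, Fth1, Ppia, Aldoa, Rpl9, Penk, Psap, Calm2, Rps2 and Ckb, from 2161 RPKM for the chaperone Hspa8 to 974 RPKM for the brain creatine kinase Ckb. Several, such as Ppia, Rpl41, Rps2 and Eef1a1, have processed pseudogenes, and their levels are uncertain for the same reason. Among these 20, Penk was the one gene of a striatal neuron class. The 100 highest genes held 20.1% of the summed RPKM and the 10 highest 5.59%, and gene 100 stood at 439 RPKM.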

How the data were processed

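Gene levels in RPKM were made and deposited by the authors, per the file headers, for 3 lanes of 1 library of pooled saline RNA and as 1 composite, with a total for each lane. The submitters' processing notes list Bowtie 0.12.7 and the mouse build mm9. Which counter, gene models and gene lengths were used is not given in the sources used here. Groups and lane numbers came from the sample titles. Lane values were averaged, ranked over all 21423 genes and, for 12 pairs, compared as log2(RPKM + 0.5) within each lane (Python 3.11.15, numpy 2.4.6, pandas 2.3.3, matplotlib 3.10.9). With 1 library no test was run. A list's median is that of the mean levels of its members. Its SD is that of the 3 lane medians, which can all lie to one side of the median given. The ranks, medians and ratios were tested on simulated data. The 77 gene lists, matched by symbol or RefSeq synonym, share members, and members and lists were chosen with earlier results of these data known; the pattern for TRP channels was tightened after Trpc4ap, no channel, had matched it. Named genes are the 7 markers, the 20 highest genes, all members of receptor families of up to 10 genes, the 3 highest of other lists, defining markers at 0 and the genes of the pairs; other genes are said to be named after their values were seen. Some genes that this rule names, and 1 planned pair, are not reported here. Promoter sequences are RefSeq's for GRCm38.p6. Alternatives were the composite, the median of lanes, other minimum levels and pseudocounts, leaving out predicted genes or small RNAs, and leaving out each lane. The cocaine and withdrawal lanes served only to check which genes the table lists, and their 2 composite columns were not used.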

Additional observations from a re-analysis of the deposited data

How the results depend on the processing

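No order of a pair turned and no count moved by over 1.5 times. Of 257 ranks under the alternatives 41 moved by more than their lane SD, as did 67 of 461 list medians. The share of genes below each of the 7 markers moved so when taken among genes at or above 1 RPKM. For Tac1 it was then 81.5% in place of 87.9%. Without predicted genes, Riken clones and small RNAs, 11997 genes were detected. Genes counted as detected numbered 11149 with a minimum of 3 RPKM and 15516 with one of 0.5 RPKM, and 13962 to 14021 with the composite, the lane median or without 1 lane. The share of summed RPKM in the 100 highest genes was 20.1%, and 20.9% (20.91) without predicted genes, Riken clones and small RNAs. The log2 difference of Grin2b and Grin2a, 2.65, was 2.947 with a pseudocount of 0.1 RPKM and 2.372 with 1 RPKM; the other 11 pairs moved by less than their lane SD under both. Of 77 list medians, 4 moved by over 1.5 times with the lane median and 3, 2 and 1 without lanes 1, 2 and 3. With members above 0 in every lane, 21 of 76 moved so far, and the Hox genes gave no value because none of them was above 0 in every lane. The moves with the lane median or without a lane were in the olfactory, vomeronasal, Hox and Pax lists, whose medians were at most 0.0679 RPKM. No paired analysis was possible because the results come from no test and 1 library. All errors leave out variation between mice and between libraries.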

Other observations

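Long non-coding RNAs made up 1813 of the genes by the biotype of the reference annotation, and 565 of them reached 1 RPKM. After Meg3 the highest were Malat1, a nuclear RNA of most cells, with 359.7, 344 and 345 RPKM in lanes 1, 2 and 3, 2900097C17Rik with 302 ± 0.908 RPKM and Gas5, a host of small nucleolar RNAs, with 272, 294 and 286 RPKM. AY036118 (233 ± 3.61 RPKM) and Snhg11 (229.7 ± 2.28 RPKM) followed. All were chosen after their values were seen, and their rank among genes was between 146 and 268. In contrast 12687 of 17363 protein-coding genes reached 1 RPKM.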
